A study of Mus musculus with 6 samples.

Results

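The respiratory chain and ATP synthase of the inner mitochondrial membrane are built from subunits of complexes I to V, most of them encoded in the nucleus. The genes described here are the protein-coding rows whose symbols begin with Nduf, Uqcr, Cox4 to Cox8 or Atp5, or are Sdha, Sdhb, Sdhc, Sdhd or Cyc1. They were chosen by symbol and not by their values, and they number 98 of the 56748 rows of the table. By what each is known to be, 78 are subunits, with 37 in complex I, 4 in complex II, 9 in complex III, 11 in complex IV and 17 in complex V (ATP synthase). The symbols also take in 8 assembly factors of complex I, 8 tissue isoforms, the supercomplex factor Cox7a2l, 2 gene copies and a second row of Atp5o. Ndufa4 was counted with complex IV, where the protein is known to sit in spite of its name.

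Ribosome profiling, which sequences the pieces of mRNA that ribosomes protect from nuclease, was carried out on mouse Lin-c-Kit+ cells, called hematopoietic stem cells in the labels. The comparison was between 3 libraries of the genotype WT and 3 of the genotype Mov10 KO. Cells of both genotypes had received 4.5 Gy of radiation 12 days earlier, and no unirradiated cells are part of the comparison. Mov10 encodes an RNA helicase. The labels give no strain, age, sex or design of the knockout allele, and do not say whether replicates came from separate mice, so that p-values measure the spread between these libraries, which may be technical. Footprints count both how much mRNA there is and how densely ribosomes sit on it, and mRNA levels were not analysed here. In such bulk samples fewer cells of a type and less RNA per cell cannot be told apart.

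Complex I takes electrons from NADH and complex II from succinate, and both pass them to coenzyme Q. Complex III passes them on to cytochrome c and complex IV to oxygen, while complexes I, III and IV pump protons that drive ATP synthesis by complex V. Complexes I, III, IV and V mix nuclear-encoded subunits, made by cytosolic ribosomes, with mitochondrially encoded ones, and only complex II is wholly nuclear. Quiescent hematopoietic stem cells are known for low reliance on respiration, and cells that divide and differentiate for greater reliance on it.

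Nuclear respiratory factor 1 (NRF1), the ETS factor GABP and YY1 are known regulators of such genes, and their motifs are shown in the promoters of genes whose footprints differed between the genotypes. RefSeq promoter windows of build GRCm38.p6, from 250 bases before to 50 bases after the start, were found for 77 of the 97 symbols. The NRF1 motif, read as GCGC, any base and then TGCGC and searched on both strands, was in 19 of these 77 genes (24.7%) and in 5.19% of all 27025 genes with a window. The background of all genes with a window, used for each motif here, was not limited to genes tested. Genes are said to be called higher or lower in Mov10 KO where limma gave an adjusted p under 0.05. This held for 10.3% and 10.9% of all genes tested. The motif was in 4 of the 17 genes with a window called higher, in 1 of the 8 called lower and in 14 of the 49 not called. The windows of Sdha, Atp5h, Ndufa5 and Atp5g3, called higher, and of Cox6a1, called lower, are printed on the sense strand, 5′ to 3′, with 1 match a line in capitals. Sdha held 3 matches and Cox6a1 held 2. The first Sdha line also holds the remaining Sdha match, left in small letters near its 5′ end. For Cox6a1, 1 of the 2 is shown.
Sdha (chr13:74350241-74350300): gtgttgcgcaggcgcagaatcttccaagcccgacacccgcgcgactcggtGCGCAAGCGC
Sdha (chr13:74350304-74350363): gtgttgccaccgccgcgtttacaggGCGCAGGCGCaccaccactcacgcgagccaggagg
Atp5h (chr11:115420026-115420085): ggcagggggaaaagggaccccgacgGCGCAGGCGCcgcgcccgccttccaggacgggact
Ndufa5 (chr6:24527697-24527726): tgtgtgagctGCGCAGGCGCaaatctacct
Atp5g3 (chr2:73911295-73911324): gagccgcaccGCGCTTGCGCgcccagcccc
Cox6a1 (chr5:115349041-115349100): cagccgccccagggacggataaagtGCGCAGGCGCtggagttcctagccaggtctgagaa
The same motif thus stood in the windows of genes called in opposite directions. In Atp5g3 the match lay after the start. All of these genes lie on the minus strand, so the letters run against the coordinates.

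The ETS motif CCGGAAGT, searched on both strands, was in 5 of the 77 genes (6.49%) against 4.31% of all genes, and 2 of the 5, Atp5h and Uqcr11, were called higher. The YY1 motif AAGATGGC, searched on both strands, was in 11 of the 77 genes (14.3%) against 3.19% of all genes. It was in 2 of the 17 genes called higher, 3 of the 8 called lower and 6 of the 49 not called. In Atp5j2, Ndufa9, Ndufaf8 and Ndufb8 the match lay after the start, and its letters hold an ATG. The printed matches of one motif did not overlap those of another, and a match is a description of letters only. The windows follow in the same build and on the sense strand.
Atp5h, ETS (chr11:115419925-115419984): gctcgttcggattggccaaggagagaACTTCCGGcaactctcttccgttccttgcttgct
Uqcr11, ETS (chr10:80406854-80406913): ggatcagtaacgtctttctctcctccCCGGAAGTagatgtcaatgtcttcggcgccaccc
Atp5j2, YY1 (chr5:145191500-145191529): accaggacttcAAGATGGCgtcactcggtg
Atp5j, YY1 (chr16:84835046-84835075): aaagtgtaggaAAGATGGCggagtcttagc
Ndufb8, YY1 (chr19:44555393-44555422): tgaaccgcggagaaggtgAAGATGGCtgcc
Ndufa9, YY1 (chr6:126849097-126849126): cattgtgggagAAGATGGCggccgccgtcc
Ndufaf8, YY1 (chr11:120098933-120098962): aggcagggcccAAGATGGCggcgccctcga
Of these, Atp5j2, Atp5j and Ndufb8 were called lower and Ndufa9 and Ndufaf8 higher.

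The WT libraries held 2260348 to 2499634 reads and the Mov10 KO libraries 1118345 to 1352517, so depth and genotype cannot be told apart. Values are normalized reads, that is, reads divided by a size factor for each library, and 3 reads, the floor for a gene with none, equal 1.84 to 2.04 in WT and 4.02 to 4.85 in Mov10 KO. Means are given with their SD over the 3 libraries of a genotype. Mov10 itself had 107 ± 3.13 normalized reads (SD, n = 3) in WT and 62.1 ± 23.4 in Mov10 KO (limma adjusted p = 0.0598), with 89.0 in Mov10 KO library 2. Of the progenitor markers Kit was read at 1099 in WT and 1122 in Mov10 KO, and Procr, a marker of stem cells, at 1.30 and 0.929. The 13 progenitor markers summed to 3799 to 3864 in WT and 4063 to 4442 in Mov10 KO, with 2 of 13 called, both higher. Erythroid markers summed to 3083 to 3195 and 5058 to 5210 (7 of 11 higher, 1 lower), and neutrophil markers, without Camp, which was not tested, had 5 of 10 higher and 3 lower. Sums of the neutrophil markers, also without Camp, were 31293 to 37259 in WT and 47029 to 48809 in Mov10 KO. B cell markers summed to 987 to 1027 and 1867 to 1923 (5 of 10 called, all higher). Eosinophil, basophil and mast cell markers summed to 12865 to 15918 and 19437 to 21387 (4 of 8 called, all higher). Monocyte markers summed to 1625 to 1759 and 1079 to 1200 (2 of 8 called, both lower), and T and NK cell markers to 339 to 419 and 258 to 288 (2 of 9 called, both lower). Megakaryocyte markers, with Gp1bb listed at 0, summed to 494 to 570 and 610 to 936 (1 of 6 called, higher), and stromal markers to 338 to 406 and 420 to 582 (2 of 6 higher, 1 lower). Beside these counts, limma called 10.3% of all genes tested higher and 10.9% lower. The sums are in normalized reads, so a higher sum need not be a higher share of all reads. The part of depth and of these cell types in the results that follow was not tested.

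Respiratory chain genes were called in both directions, with the share called lower near that of all genes in the main fit. Of the 98 genes 94 had reads and 89 had the mean of at least 1 normalized read needed for the test. Of these 89, 23 were called higher in Mov10 KO (25.8%) and 11 lower (12.4%) at a limma adjusted p under 0.05 over all genes, where 10.3% of the 17114 genes tested were called higher and 10.9% lower. All 3 libraries of one genotype lay above all 3 of the other in 30 of the 89 in the direction of Mov10 KO and in 25 in the direction of WT, against 16.9% and 22.9% of all genes tested (61.8% against 39.8% in either direction). The median log2 fold change, Mov10 KO over WT, was -0.05 over the 89 genes and -0.17 over all genes tested. The interquartile range of the log2 fold changes was 1.75 over the 89 and 1.45 over all genes.

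**Figure D1:**
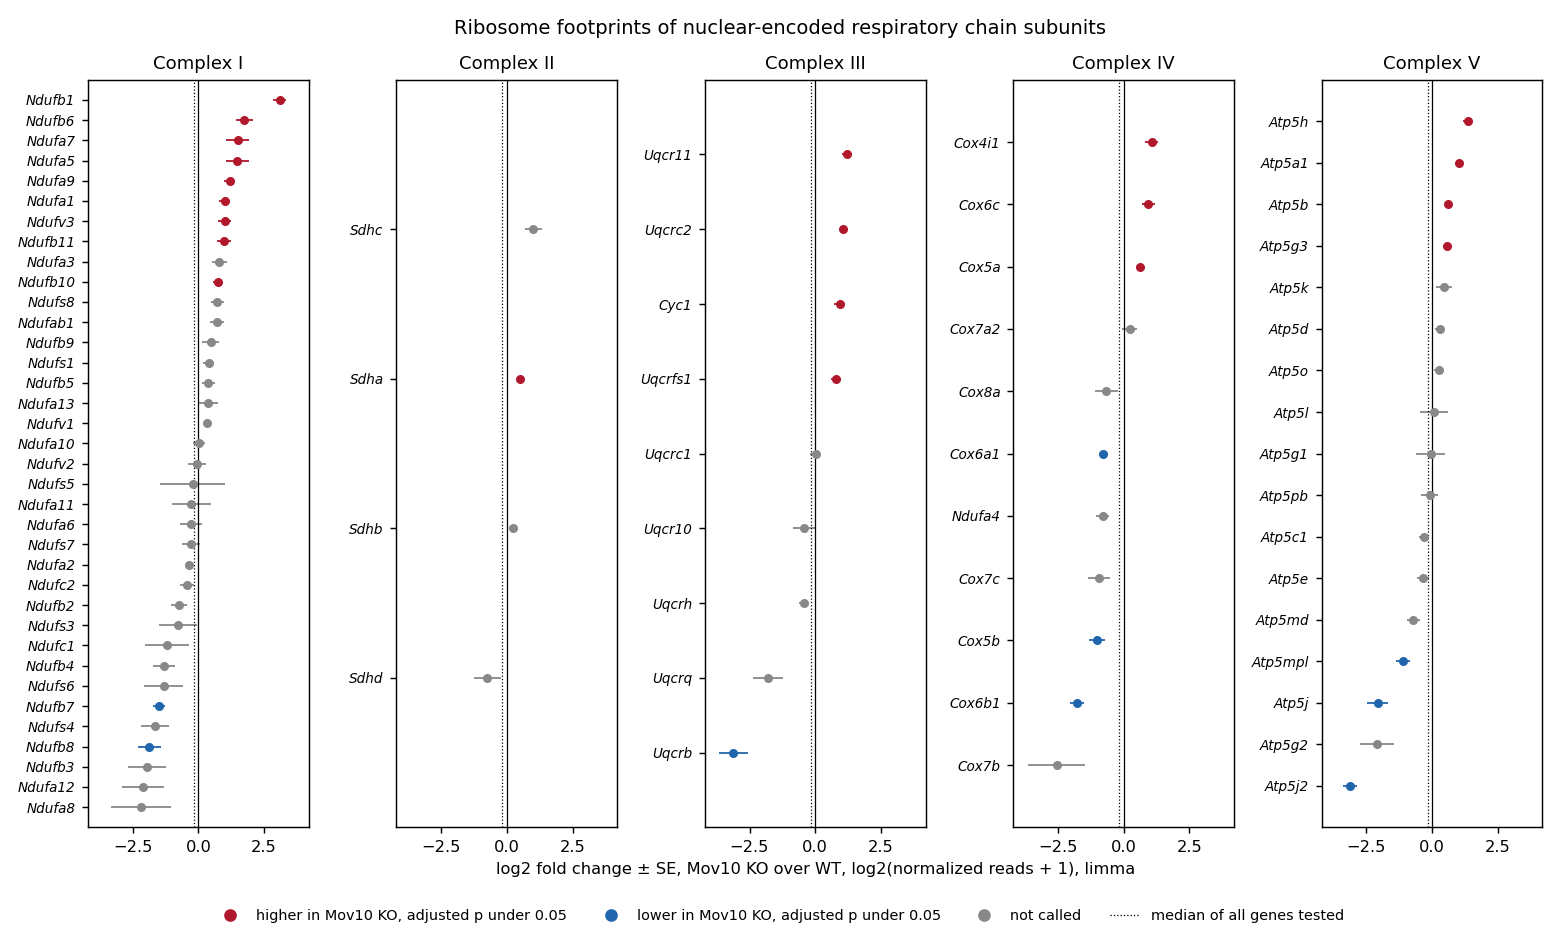
Log2 fold change with its standard error (limma, log2 of normalized reads + 1, 3 libraries per genotype) of 77 subunits, by complex; colours mark the subunits called higher or lower and the dotted line is the median of all genes tested, -0.17. Every complex but II holds subunits called in both directions, from 3.10 for Ndufb1 to -3.12 for Uqcrb and Atp5j2.

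The counts of calls depended on the libraries used. Without WT library 1, 2 or 3 there were 11, 9 and 9 genes higher and 4, 5 and 5 lower, and without Mov10 KO library 1, 2 or 3 there were 26, 20 and 24 higher and 18, 15 and 18 lower. Over all genes, the counts without a WT library were 836 to 948 higher and 403 to 501 lower, and those without a Mov10 KO library were 1997 to 2090 higher and 2405 to 2497 lower. A fit with no variance trend called 12 of the 98 genes higher and 10 lower, beside 1193 and 1479 of all genes. Scaling to library totals turned the split of the 98 to 13 higher and 21 lower and that of all genes to 1285 and 2887, and TMM scaling gave 20 and 16, beside 1566 and 2265. Scaling to library totals moved the median of all genes from -0.17 to -0.39 and upper-quartile scaling to 0.01, while the median of the 89 genes stayed 0.12 above that of all genes with both. Over the alternatives run, this difference of medians went from -0.19 with DESeq2, over every gene it fitted, to 0.31 among genes with a mean of at least 50, and it was 0.03 with cyclic loess. Under every alternative that tested them, 8 genes were called higher (among them Ndufa9, Ndufb1, Ndufb6, Uqcr11, Uqcrc2, Atp5a1 and Atp5h) and 4 lower (Ndufb7, Cox6b1, Atp5j2 and Cox7a2l). Atp5b also kept its call without each library in turn, while each of the other called genes lost it without at least 1 of the WT libraries. Of the 34 called genes 9, among them Ndufb1, Ndufb6 and Atp5a1, overlap another gene with reads, and whether the counting used the strand is not given in the sources used here.

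In complex I, 10 of 37 subunits were called higher in Mov10 KO and 2 lower, with a median log2 fold change of 0.01. Ndufv1, which binds NADH, and Ndufs1, the large iron-sulfur subunit, belong to the core that carries out catalysis, and were not called. Ndufv1 had 409 ± 39.0 in WT and 512 ± 61.9 in Mov10 KO (adjusted p = 0.0984). Ndufs1, which overlaps Eef1b2, had 162 ± 10.5 and 217 ± 55.8 (adjusted p = 0.212). In both of these the groups overlapped.

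Of the 19 accessory subunits of complex I outside the distal membrane arm, 5 were called, all of them higher. At an unadjusted p under 0.05, 7 were higher and 2 lower, and edgeR and DESeq2 each called 6 higher and 1 lower. Of all genes, 14.7% were higher and 19.5% lower at an unadjusted p under 0.05, edgeR called 16.5% higher and 13% lower, and DESeq2 called 11.9% higher and 9.1% lower. Ndufa9, which lies beside the coenzyme Q site, had 105, 79.2 and 119 normalized reads in WT and 235, 191 and 263 in Mov10 KO. It rose 2.27-fold (log2 fold change 1.18, SE 0.20, adjusted p = 0.00503). Ndufa1, a small membrane subunit needed for assembly, had 109, 86.5 and 78.4 in WT and 216, 181 and 152 in Mov10 KO, a rise of 2.00-fold (adjusted p = 0.0108). Ndufv3, in the NADH-binding part, rose from 54.5 ± 5.64 to 111 ± 24.7 (adjusted p = 0.0214). Ndufa5 and Ndufa7, both in the arm that reaches into the matrix, had few reads. Ndufa5 rose from 15.7 ± 4.02 to 47.1 ± 17.6 and Ndufa7 from 11.9 ± 2.63 to 36.0 ± 12.2, with adjusted p-values of 0.0432 and 0.0448. Each of these 5 genes had its 3 Mov10 KO values above its 3 WT values, and of these 5 calls only that of Ndufa9 was kept under every alternative.

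The 11 Ndufb subunits build the distal part of the membrane arm, and among them were calls in both directions, 4 higher and 2 lower. Ndufb1 (chromosome 12, 101934349 to 101943327, GRCm39) had 35.7, 28.2 and 41.6 normalized reads in WT and 239, 296 and 402 in Mov10 KO. This was the largest rise among the 98 genes in the main test, 8.88-fold (log2 fold change 3.10, SE 0.25, adjusted p = 8.94e-05). It rests on 55, 46 and 61 reads in WT and on 178, 183 and 278 in Mov10 KO, and Ndufb1 overlaps Cpsf2, so reads of both cannot be assigned with certainty. Ndufb6 had 26.0, 19.6 and 14.3 in WT and 63.0, 63.1 and 76.7 in Mov10 KO, 3.38-fold higher (adjusted p = 0.00833), and overlaps Smim27. Ndufb10 rose from 85.8 ± 7.76 to 143 ± 13.4 (adjusted p = 0.0197) and Ndufb11, which overlaps Rbm10, from 59.5 ± 6.70 to 120 ± 38.6 (adjusted p = 0.0299).

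Against these, Ndufb7 had 130, 115 and 99.5 normalized reads in WT and 41.6, 37.2 and 40.5 in Mov10 KO. It fell 2.88-fold (log2 fold change -1.50, SE 0.22, adjusted p = 0.00236). Ndufb8 had 98.7, 80.4 and 89.9 in WT and 12.1, 24.3 and 44.9 in Mov10 KO, 3.31-fold lower (log2 fold change -1.87, SE 0.44, adjusted p = 0.0192). Both lay lower in every Mov10 KO library than in any WT library. The call of Ndufb7 was kept under every alternative, and that of Ndufb8 was lost with no variance trend and without any one WT library, with adjusted p up to 0.104. Without WT library 1, 2 or 3, complex I held 5, 4 and 4 subunits higher and 1 lower each time, and without Mov10 KO library 1, 2 or 3 it held 5, 5 and 6 lower.

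Complex II, succinate dehydrogenase, had 1 of 4 subunits called, and it was higher. At an unadjusted p under 0.05 there were 2 higher and 0 lower, as there were by edgeR and by DESeq2. Sdha, the flavoprotein that oxidises succinate, had 460, 413 and 454 normalized reads in WT and 658, 532 and 703 in Mov10 KO. It rose from 442 ± 25.4 to 631 ± 88.7, 1.43-fold (log2 fold change 0.50, SE 0.12, adjusted p = 0.0203). Sdhb, the iron-sulfur subunit, had 155 ± 8.08 in WT and 182 ± 8.65 in Mov10 KO, with no overlap of the groups but an adjusted p of 0.262. Sdhc, one of the membrane anchors, had 94.1, 94.5 and 80.4 in WT and 105, 260 and 217 in Mov10 KO (adjusted p = 0.0527). Its Mov10 KO library 1 lay close to WT, and without that library complex II had 2 subunits higher. Without WT library 1, 2 or 3 it had none, and the call of Sdha was also lost with library totals, cyclic loess and no variance trend.

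In complex III, 4 of 9 subunits were called higher and 1 lower. Both redox subunits counted here rose: Cyc1, the cytochrome c1 that hands electrons to cytochrome c, from 78.8 ± 11.0 to 150 ± 21.6 normalized reads (adjusted p = 0.0128), and Uqcrfs1, the Rieske iron-sulfur protein, from 81.4 ± 3.69 to 143 ± 24.2 (adjusted p = 0.019). Uqcrc2, a large matrix-facing subunit (chromosome 7, 120234399 to 120258747, GRCm39), had 246, 238 and 215 in WT and 488, 531 and 434 in Mov10 KO. That was 2.08-fold higher (log2 fold change 1.05, SE 0.12, adjusted p = 0.000641). Its partner Uqcrc1 had 277, 218 and 221 in WT and 308, 252 and 178 in Mov10 KO. These groups overlapped widely, and the log2 fold change of 0.02 turned negative with library totals, TMM scaling and cyclic loess. Uqcr11, the smallest subunit, had 118, 107 and 80.4 in WT and 207, 230 and 275 in Mov10 KO, 2.33-fold higher (log2 fold change 1.22, SE 0.19, adjusted p = 0.0036).

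Uqcrb, a matrix-side subunit that contacts the coenzyme Q site, was the lower call in complex III. Uqcrb (chromosome 13, 67048681 to 67053442, GRCm39) had 83.8, 65.7 and 64.1 normalized reads in WT and 14.8, 8.09 and 2.89 in Mov10 KO, the last of these from 2 reads, and it overlaps the gene model Gm10767. It fell 8.30-fold (log2 fold change -3.12, SE 0.55, adjusted p = 0.00569). Without WT library 1 or 2 its adjusted p passed the threshold no longer, reaching 0.0569. The 4 subunits of complex III that were not called had log2 fold changes of 0.02 or less, and 3 of them lay lower in every Mov10 KO library than in any WT library. Without any one WT library 2 subunits of complex III were called higher, and the number lower was 0, 0 and 1. Without any one Mov10 KO library 2 were lower.

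Complex IV, cytochrome c oxidase, had 3 of 11 nuclear subunits called higher and 3 lower, with a median log2 fold change of -0.77, the lowest of the 5 complexes. Cox4i1, a regulatory subunit that is added early in assembly and whose gene overlaps Emc8, had 186, 130 and 147 normalized reads in WT and 224, 372 and 395 in Mov10 KO, 2.14-fold higher (log2 fold change 1.07, SE 0.23, adjusted p = 0.0149). Cox5a, its early assembly partner, rose from 119 ± 5.45 to 186 ± 23.5 (adjusted p = 0.0232). Cox6c, a membrane subunit that overlaps Vps13b, rose from 47.3 ± 8.15 to 91.9 ± 17.7 (adjusted p = 0.0326).

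Lower in complex IV were Cox6b1, Cox6a1 and Cox5b. Cox6b1, which faces the intermembrane space (chromosome 7, 30316286 to 30325576, GRCm39), had 151, 150 and 139 in WT and 30.8, 38.8 and 60.8 in Mov10 KO. It fell 3.37-fold (log2 fold change -1.79, SE 0.27, adjusted p = 0.00281), and this call was kept under every alternative. Cox6a1, a membrane subunit at the dimer interface, had 213, 222 and 206 in WT and 125, 146 and 107 in Mov10 KO, 1.70-fold lower (adjusted p = 0.0114). Cox5b, the zinc-binding matrix subunit, fell from 59.6 ± 3.31 to 29.5 ± 7.93 (adjusted p = 0.0449), and its call was lost without any one WT library, with upper-quartile scaling, cyclic loess, no filter, no variance trend, the replicate block and DESeq2. Without WT library 1, 2 or 3, complex IV held 1, 0 and 0 subunits higher and 1 lower each time.

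ATP synthase (complex V) had 4 of 17 subunits called higher and 3 lower. In the catalytic F1 part 2 of 5 were called, both higher, in the rotating c ring 1 of 3, higher, and in the stalk 1 of 4 in each direction. At an unadjusted p under 0.05 by limma the c ring had 1 higher and 1 lower. Of the 5 small membrane subunits 2 were called, both lower, by limma, edgeR and DESeq2 alike. No test was made of the difference between these groups. Atp5a1, the alpha subunit, which overlaps Haus1, had 1794, 1546 and 1543 normalized reads in WT and 3381, 3288 and 3159 in Mov10 KO, 2.01-fold higher (log2 fold change 1.01, SE 0.07, adjusted p = 5.34e-05). Atp5b, the catalytic beta subunit (chromosome 10, 127919142 to 127926260, GRCm39), had 1805, 1643 and 1714 in WT and 2675, 2685 and 2480 in Mov10 KO, 1.52-fold higher (log2 fold change 0.60, SE 0.06, adjusted p = 0.000387). These were the most highly read of all 98 genes, and their groups lay far apart. The adjusted p of Atp5b was 0.98 after cyclic loess, which levels fold changes along abundance, and its call was also lost with no variance trend.

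The gamma, delta and epsilon subunits of F1 were not called, with log2 fold changes of -0.32 for Atp5c1, 0.29 for Atp5d and -0.36 for Atp5e. Atp5g3, 1 of 3 genes for the same c ring protein, had 351, 319 and 316 in WT and 386, 637 and 479 in Mov10 KO, 1.52-fold higher (adjusted p = 0.0448). Its call was lost without any one WT library, without Mov10 KO library 2 or 3, and with library totals, TMM scaling, cyclic loess, a pseudocount of 0.1, no filter and no variance trend. Atp5h, subunit d of the peripheral stalk (chromosome 11, 115306515 to 115310788, GRCm39), had 111, 81.0 and 96.8 in WT and 279, 238 and 229 in Mov10 KO. It rose 2.58-fold (log2 fold change 1.37, SE 0.17, adjusted p = 0.00111), a call that every alternative kept.

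Atp5j2, subunit f of the membrane part (chromosome 5, 145120508 to 145128872, GRCm39), had 194, 157 and 169 normalized reads in WT and 21.5, 14.6 and 21.7 in Mov10 KO. In reads these were 299, 256 and 248 against 16, 9 and 15. The fall was 9.01-fold (log2 fold change -3.12, SE 0.26, adjusted p = 0.000113), and it was kept under every alternative. Atp5j, subunit F6 of the stalk, had 96.7, 71.8 and 91.3 in WT and 30.8, 11.3 and 21.7 in Mov10 KO, 4.07-fold lower (log2 fold change -2.07, SE 0.39, adjusted p = 0.00804). Atp5j overlaps Gabpa, which encodes a subunit of GABP. Atp5mpl, a small proteolipid of the membrane part, fell from 105 ± 9.06 to 48.9 ± 15.6 (adjusted p = 0.0199). Without WT library 1 or 3, complex V had 1 subunit lower, and without WT library 2 it had 2.

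**Figure D2:**
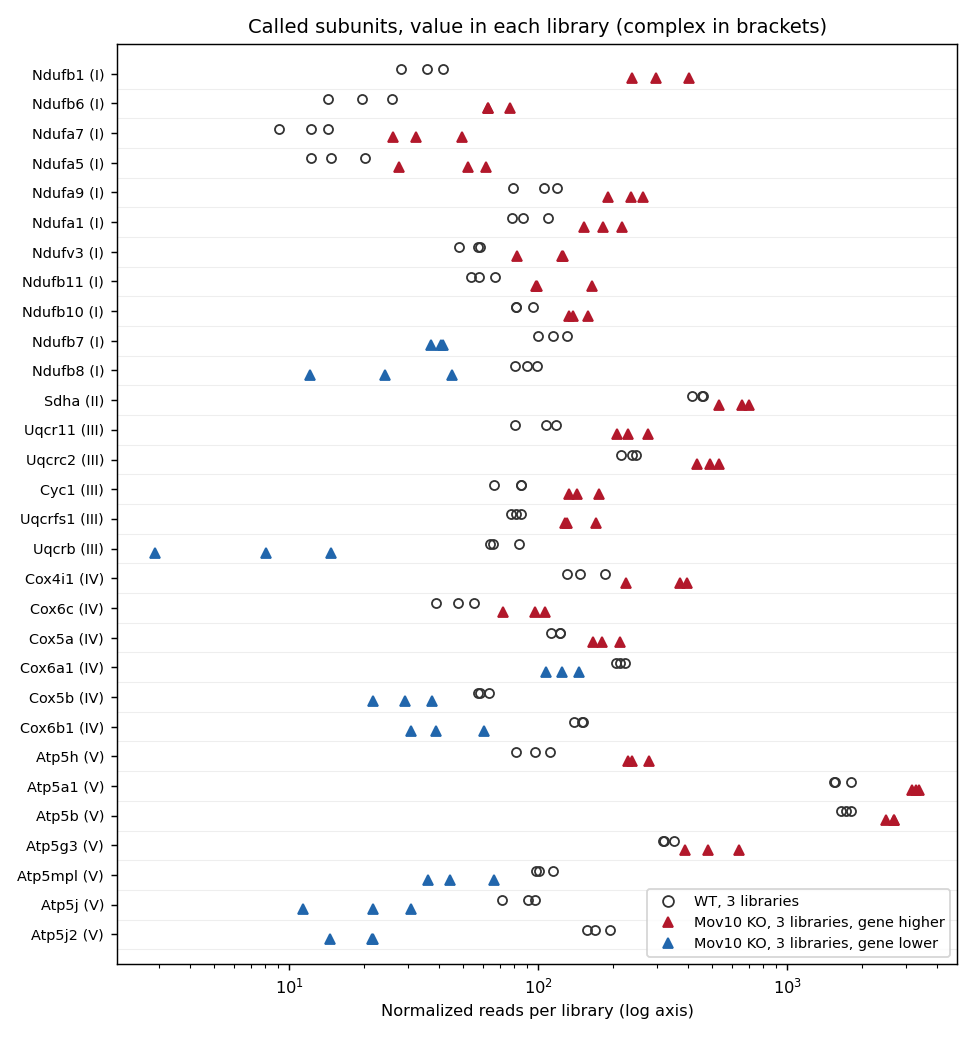
Normalized reads (log axis) in each of the 3 WT libraries (open circles) and the 3 Mov10 KO libraries (triangles) for 30 subunits of complexes I to V called higher or lower. In each of them the 3 Mov10 KO values lie on one side of the 3 WT values, from Atp5a1 at 1543 to 3381 down to Uqcrb at 2.89 to 83.8.

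Of the genes that are not subunits, the 8 assembly factors of complex I that the symbols take in had 1 call, Ndufaf8, which rose from 16.7 ± 3.31 to 48.5 ± 13.7 normalized reads (adjusted p = 0.0284). The other 7 had log2 fold changes from -2.30 to 0.99. Cox7a2l, which joins complexes III and IV into supercomplexes (chromosome 17, 83809347 to 83824759, GRCm39), had 215, 207 and 183 in WT and 38.9, 64.7 and 83.9 in Mov10 KO. It fell 3.22-fold (log2 fold change -1.74, SE 0.27, adjusted p = 0.00358), and the call was kept under every alternative. Its relative Cox7a2, the subunit of complex IV itself, had 84.7 ± 21.4 and 101 ± 32.5 (adjusted p = 0.616), a gene named here after its values were seen.

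Of the 8 isoforms known mainly from other tissues, 7 had a read and 2 were tested. Cox6a2, the heart and muscle isoform of Cox6a1, was called lower (adjusted p = 0.0446) with 1.95, 1.84 and 3.41 normalized reads in WT and 0 in all Mov10 KO libraries. These WT values lie under the floor of 4.02 to 4.85 in Mov10 KO, so no fold is given. Cox7b2, Cox5b-ps, Ndufb11b and the second row of Atp5o had no read in any library.

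Log2 fold changes differed by level. Among the 10 genes whose mean reached 200 normalized reads were 7 called higher and 0 lower by limma, edgeR and DESeq2 alike, and 8 higher and 0 lower at an unadjusted p under 0.05, where limma called 39.2% of all genes at that level higher and 14.6% lower. Of the 43 genes with a mean of 50 to 200, 12 were higher and 8 lower, against 13.5% and 13.8% of all genes. Of the 36 genes with a mean of 1 to 50, 4 were higher and 3 lower, against 3.54% and 9.10%. From the highest to the lowest class the median log2 fold change was 0.59, 0.23 and -0.76 in these genes, and 0.22, -0.09 and -0.36 over all genes. Across the 89 genes the Spearman correlation of log2 fold change with mean level was 0.503, and across all 17114 genes 0.126. With the deposited gene length it was 0.0911 and 0.0322. Genes share the same 6 libraries and are not independent, so these correlations are descriptions.

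**Figure D3:**
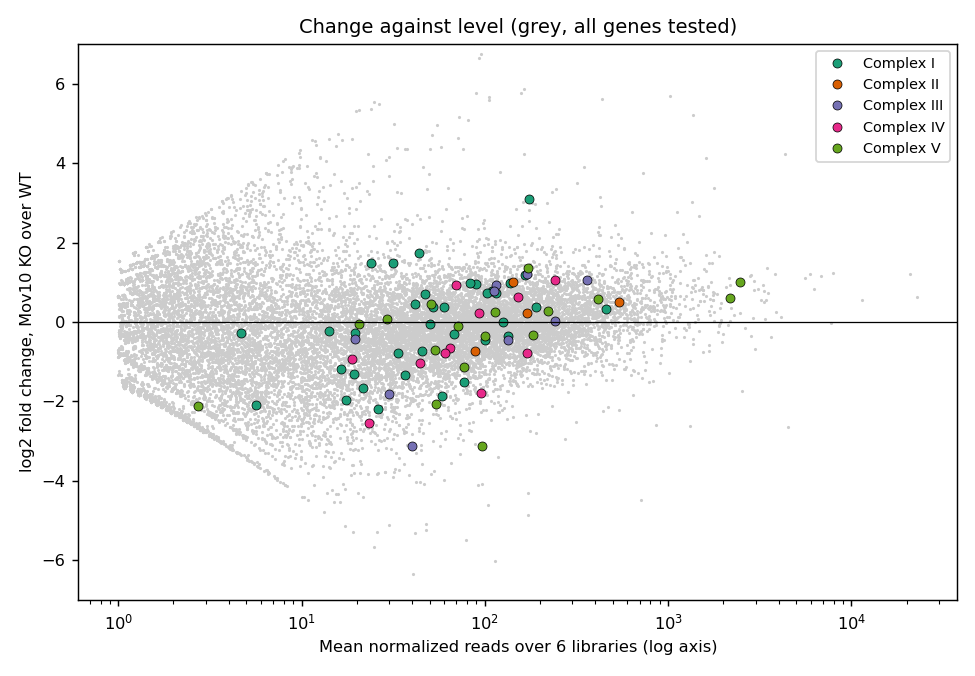
Log2 fold change, Mov10 KO over WT (limma), against mean normalized reads over the 6 libraries (log axis), with 77 subunits coloured by complex and all 17114 genes tested in grey. Subunits above a mean of 200 lie mostly above 0, and those below a mean of 50 mostly below it.

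The Mov10 KO libraries also varied more among themselves than the WT libraries. The SD was larger in Mov10 KO than in WT for 72 of the 89 genes (80.9%) and for 82.8% of all genes tested. Of the 55 genes not called, 7 had all Mov10 KO values above all WT values and 14 had all below, against 8.42% and 15.2% of all genes not called.

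Summed over a complex, normalized reads were higher in Mov10 KO for all complexes but IV, on a scale set by the size factors. Complex I summed to 2556 ± 179 normalized reads in WT and 3537 ± 272 in Mov10 KO, a ratio of 1.38. Complex II summed to 789 ± 28.0 and 1081 ± 108 (ratio 1.37), and complex III to 1027 ± 88.6 and 1415 ± 82.2 (ratio 1.38). Complex V summed to 4984 ± 327 and 7571 ± 307, a ratio of 1.52. In these 4 complexes the libraries of the genotypes did not overlap. Complex IV summed to 1038 ± 54.5 and 1030 ± 100, a ratio of 0.993 with overlapping groups. With upper-quartile scaling that ratio was 1.14. The share of all reads in complex IV fell from 0.0671% ± 0.00293 in WT to 0.0568% ± 0.00551 in Mov10 KO. By share, its groups did not overlap. As a share of all reads the 98 genes took 0.700% ± 0.0374 in WT and 0.823% ± 0.0217 in Mov10 KO. In shares the rises were smaller than in normalized reads. Complex I went from 0.165% to 0.195%, II from 0.0511% to 0.0596%, III from 0.0664% to 0.0780% and V from 0.322% to 0.417%. No p is given for these sums, since the genes were chosen as a list.

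Single genes held a large part of some of these sums. Atp5a1 and Atp5b together held 30.9% ± 0.0926 of the footprints of the 98 genes in WT and 39.5% ± 2.04 in Mov10 KO. Leaving out the most abundant gene of each complex brought the ratio of complex V to 1.28, that of complex III to 1.17 and that of complex IV to 0.792, while complex I stood at 1.41 and complex II at 1.30. Per kilobase of deposited gene length the highest WT levels were 519 normalized reads for Atp5a1, 406 for Atp5b and 304 for Cox6a1. In Mov10 KO the same genes stood at 1045, 617 and 179. The length of the coding sequence was not used, so this order depends on the deposited lengths.

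**Figure D4:**
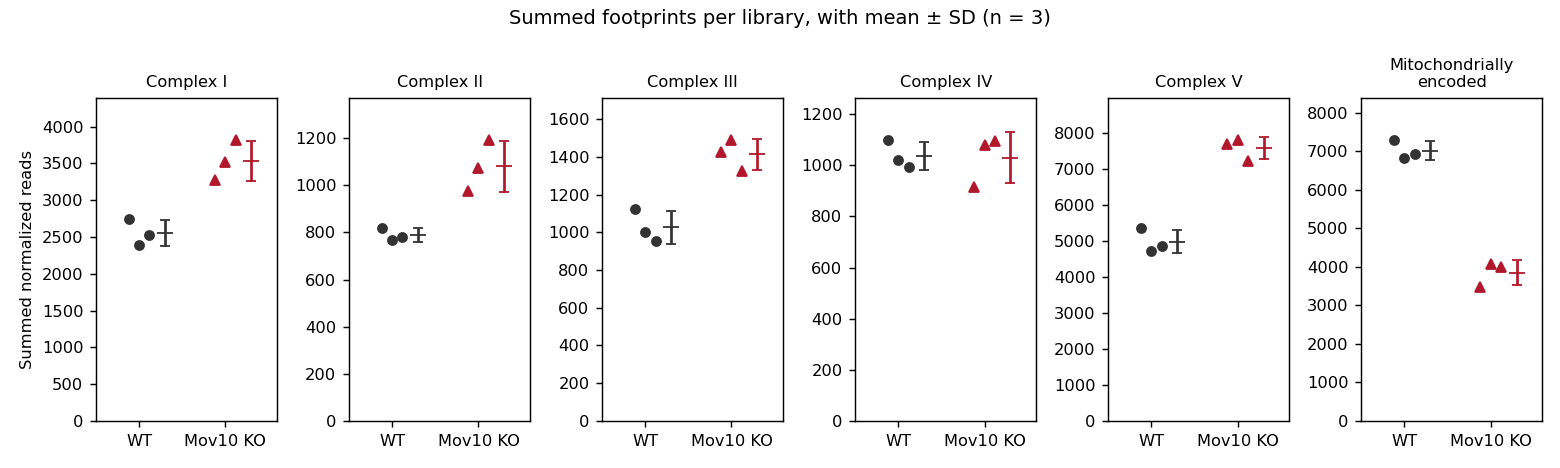
Summed normalized reads of the subunits of each complex in each library, with mean ± SD (n = 3), and of the mitochondrially encoded subunits in the last panel; each axis starts at 0. Complexes I, II, III and V lie higher in all 3 Mov10 KO libraries, complex IV overlaps at 1038 and 1030, and the mitochondrially encoded sum drops from 7016 to 3853.

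The mitochondrially encoded subunits, made by the ribosomes of the organelle, went the other way in sum. They held 7292, 6834 and 6922 normalized reads in the WT libraries and 3487, 4065 and 4007 in the Mov10 KO libraries. The ratio of nuclear to mitochondrially encoded footprints was 1.59, 1.51 and 1.52 in WT and 4.17, 3.76 and 3.74 in Mov10 KO, with no overlap. Most of the drop in the sum lay in mt-Co1, the catalytic subunit of complex IV, which fell from 3911 ± 102 to 1177 ± 16.7 (adjusted p = 8.1e-07). Without mt-Co1, a setting added after seeing the data, the sum was 3105 ± 155 in WT and 2676 ± 329 in Mov10 KO, a ratio of 0.862 in place of 0.549. The ratio of nuclear to mitochondrially encoded footprints then went from 3.48 ± 0.0777 to 5.63 ± 0.606, 1.62-fold in place of 2.52-fold. Of 13 such genes 9 were tested, with 4 lower and 1 higher, and mt-Nd4l, mt-Co2 and mt-Co3 are listed at 0 in all libraries. Among the lower ones were mt-Co1, mt-Nd3 of complex I and mt-Cytb of complex III, the last from 1219 ± 92.7 to 445 ± 121 (adjusted p = 0.00106). The higher one was mt-Nd5 of complex I, which rose from 605 ± 34.9 to 1087 ± 172 (adjusted p = 0.00209). Copies of mitochondrial genes elsewhere in the genome can take up such reads, so these values are uncertain.

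Subunits of one complex differed more from each other in Mov10 KO than in WT in complexes I, III and V. As a measure, the SD of log2 normalized reads per kilobase was taken over the subunits with a mean of at least 50. In complex V (14 subunits) it was 1.38, 1.41 and 1.37 in the WT libraries and 2.10, 2.47 and 2.17 in the Mov10 KO libraries. In complex I (20 subunits) it went from 1.25 ± 0.0177 to 1.68 ± 0.110, and in complex III (6 subunits) from 0.791 ± 0.0202 to 1.01 ± 0.143. In complex IV (8 subunits) it went from 1.38 ± 0.0926 to 1.13 ± 0.0904, but with a minimum mean of 10 from 1.38 ± 0.0591 to 1.78 ± 0.518. The libraries of complex II overlapped. Lower depth in Mov10 KO adds counting error to such a spread, and its part was not tested. This spread was not measured over all genes, so it cannot be called particular to these complexes.

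Other genes of the pathway were taken from lists chosen by function. Of 45 assembly factors outside the symbols above, 4 were called higher and 6 lower, beside 10.3% and 10.9% of all genes tested. Foxred1, a complex I assembly factor, rose from 66.7 ± 13.2 to 136 ± 21.3 normalized reads (adjusted p = 0.0135), and Cmc1, an assembly factor of complex IV, fell from 47.1 ± 4.24 to 17.3 ± 3.87 (adjusted p = 0.0242). Uqcc2, for complex III, and Slirp, which stabilises mitochondrial mRNA, were called lower with 11.4 ± 1.85 and 8.28 ± 2.42 in WT and no read in Mov10 KO. Against the Mov10 KO floor of 3 reads per library, the WT levels were at least 2.58-fold and 1.88-fold higher.

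Of 15 genes for cytochrome c and coenzyme Q synthesis, 2 were called, both higher and both enzymes of coenzyme Q synthesis. Limma called 10.3% of all genes tested higher and 10.9% lower. Coq7 rose from 24.4 ± 2.25 to 76.0 ± 15.9 (adjusted p = 0.00664) and Coq3 from 20.7 ± 7.06 to 56.5 ± 13.2 (adjusted p = 0.0324). Of 13 genes of the tricarboxylic acid cycle, 3 were called higher and 6 lower. Cs, citrate synthase, rose from 380 ± 44.2 to 855 ± 31.3 (adjusted p = 0.000175), Idh3g, of isocitrate dehydrogenase, from 160 ± 23.4 to 614 ± 27.2 (adjusted p = 3.7e-05), and Ogdh, of the 2-oxoglutarate dehydrogenase complex, from 559 ± 9.62 to 1322 ± 106 (adjusted p = 3.55e-05). Dlst, another subunit of the complex that holds Ogdh, fell from 393 ± 26.9 to 217 ± 36.6 (adjusted p = 0.00435).

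Of 12 tested regulators of the transcription of respiratory genes 2 were called, both lower. At an unadjusted p under 0.05 there were 1 higher and 3 lower, edgeR called 0 higher and 2 lower, and DESeq2 0 higher and 1 lower. Gabpb1, a subunit of GABP, fell from 52.6 ± 3.36 to 18.9 ± 13.0 (adjusted p = 0.0458) and Yy1 from 218 ± 13.7 to 158 ± 17.2 (adjusted p = 0.0494). Both lie near the threshold of 0.05, and limma called 10.3% of all genes tested higher and 10.9% lower.

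In the authors' deposited table, 26 of the 94 genes with a p were higher and 11 lower at an adjusted p under 0.05, where 6.58% and 5.2% of the 28104 genes with a deposited p were called in each direction. Of the 34 genes called by limma, 32 were called in the same direction in the authors' deposited table, and 5 that limma did not call were called there.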

How the data were processed

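Footprints of 24 to 36 nt were sequenced, per the labels' protocols, and the submitters' processing notes name the build GRCm39. Aligner, counter and annotation: not given in the sources used here. The authors deposited signal values that are reads per gene over 1 size factor per library, since division by the value of 1 read gave whole reads (within 0.05) for all 28136 genes with reads except Rps29, Camp, Igkc, Ssr4 and Rpl27, which were left out. The log2 fold changes and adjusted p-values deposited by the authors come from an unstated test.

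Genotype was the single term of a limma 3.58.1 fit (R 4.3.3) with a variance trend, on log2(value + 1), over genes whose mean reached 1 normalized read. Calls took a Benjamini-Hochberg adjusted p under 0.05. Folds are ratios of group means. Log2 fold changes come from log2(value + 1) in each library and can understate or overstate these ratios in low genes. Without molecular identifiers, floors of 3 reads cover counting error only. Named are all called genes, the 3 most read per complex, those without reads, and up to 4 called genes per pathway list; 1 such gene is not reported here. Genes, lists and tests were chosen with earlier results of these data known.

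Alternatives were a replicate block, edgeR 4.0.16 (1801 of 10891 genes higher, 1412 lower) and DESeq2 1.42.0 on recovered reads, upper-quartile, library-total, TMM and cyclic loess scaling, a pseudocount of 0.1, other filters, no variance trend, and each library left out. The fits were tested on simulated data. Figures used matplotlib 3.10.9.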

Additional observations from a re-analysis of the deposited data

How the results depend on the processing

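Same-numbered libraries of the genotypes did not deviate together (correlations of -0.0294 to -0.0055) and no library correlated best with its own number, so the numbers are not taken as pairs. With library totals the 98 genes had 13 calls higher and 21 lower, all genes had 2887 lower, complex I had 5 higher and 6 lower, II 0 higher, III 3 lower, IV 1 higher and V 6 lower, and the summed ratios were 1.18 over all, 1.18, 1.17, 1.17, 0.846 and 1.29 for complexes I to V. Upper-quartile scaling gave 2 higher in II and ratios of 1.58 over all, 1.59, 1.57, 1.58, 1.14 and 1.74, which turned complex IV to above 1. TMM scaling gave 4 lower in I and 2 in III, cyclic loess 0 higher in II and 2 in V, edgeR 4 lower in I, 2 higher in II and 2 lower in III, and DESeq2 2 higher in II and 2 lower in III. With the mean of at least 50, all genes had 1158 lower, II 2 higher and III 0 lower. Without a variance trend 12 genes were higher, with 6 in I, 0 in II, 0 in IV and 2 in V. Without the most abundant gene the ratios were 1.27 over all, 1.17 for III, 0.792 for IV and 1.28 for V. The replicate block gave 21 higher and 11 lower, with 2 higher in II and 2 lower in III, and 1593 genes higher and 1652 lower in all. Leaving out each library gave 9 to 26 higher and 4 to 18 lower, with 4 to 11 higher and 1 to 6 lower in I, 0 to 2 higher in II, 2 to 4 higher and 0 to 2 lower in III, 0 to 3 higher and 1 to 4 lower in IV, and 3 to 4 higher and 1 to 4 lower in V, beside 836 to 2090 higher and 403 to 2497 lower over all genes. The log2 fold change of Uqcrc1 was -0.21 with library totals, -0.071 with TMM, -0.10 with cyclic loess, and -0.16 to 0.23 when each library was left out. The cause of these changes was not tested. None of the 34 called genes changed direction under the alternatives run. Depth in Mov10 KO limits what can be said of genes under its floor of 4.02 to 4.85 normalized reads.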
